A study of Homo sapiens with 2 samples.

Results

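The heat shock proteins and their co-chaperones were described in 2 ribosomal RNA-depleted libraries of the human ovarian cancer cell line SKOV3. One library came from the olaparib-resistant derivative, which per the labels was kept for at least 3 months in this PARP inhibitor, a drug that blocks repair of DNA strand breaks, at a dose below the IC50. The other came from the untreated parental line. Both lines are labelled as wild type, and the protocol gives the same serum-supplemented medium. The sources used here do not say whether the resistant line is 1 clone or a pool. With 1 library per group there is no replicate check, no test was made, and whether replicates of the lines would overlap is unknown.

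The genes were chosen by name: HSPA to HSPH, HSP90, DNAJA, DNAJB, DNAJC, BAG, CCT and HSF symbols, with TCP1, STIP1, AHSA1, CDC37 and STUB1, and without hyphenated names or pseudogene-like endings. This gave 63 of the 16978 genes in the deposited table, with 249 of its 47892 transcripts. TCP1 and STIP1 were kept because they were listed by name, although they end in the letters of the leave-out rule, and without them there would be 61. HSPG2 matches by its letters but encodes perlecan, a matrix proteoglycan. It is counted among the members and shown under a role of its own. HSPB11 also matches, although its product (IFT25) is known as a subunit of the intraflagellar transport machinery. Several well-known genes that match the name rule had no entry under their names among the transcripts used here and could not be described. These were the inducible HSP70 genes HSPA1A and HSPA1B, the endoplasmic reticulum HSP70 gene HSPA5, the cytosolic HSP90AB1, the small heat shock gene HSPB1, BAG3 and HSF2. A missing entry does not mean that a gene is not expressed.

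Molecular chaperones bind unfolded or partly folded proteins and help them reach or regain their native shape. HSP70 proteins (the HSPA family) take up clients that J-domain proteins (DNAJ) deliver, and exchange factors such as HSPH1 and the BAG proteins release them. HSP90 finishes the folding of kinases and receptors with co-chaperones, the ring-shaped TRiC complex (CCT subunits and TCP1) folds actin and tubulin, and HSPD1 with its lid HSPE1 forms the folding chamber of the mitochondrial matrix. HSF1 is the transcription factor that induces many of these genes when unfolded proteins accumulate, and cancer cells are known to depend on this system.

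Expression is given as listed values, a normalized expression signal whose unit the deposited table does not name. Where a count could be recovered from the authors' fold changes, the listed value was proportional to that count over the locus length including introns, to within an SD of 0.0131 on the log2 scale for 3166 transcripts of resistant cells and 0.0123 for 3429 of parental cells. Over transcripts with a listed value above 0 in both libraries, the log2 ratio of listed values exceeded the authors' log2 fold change by a median of 0.284. The direction of near-level transcripts can therefore differ between the 2 measures. The listed values of all genes summed to 47632 for resistant and 46879 for parental cells, and read depth is unknown. Of the 249 transcripts, 163 (65.5%) are retained-intron transcripts and 80 (32.1%) processed transcripts without an open reading frame in GENCODE release 29, and the other 6 were not found there. None is annotated as an mRNA, so the values below are levels of non-coding isoforms and do not stand for the mRNA or the protein. The same shares over all transcripts are not given here, so this is not read as a trait of the members. Retained-intron transcripts made up 81.0% of the members' summed value in resistant against 76.1% in parental cells. Of 9 epithelial markers 4 were expressed, with KRT8 at 318 against 166, KRT7 at 73.3 against 62.6, ERBB2 at 3.84 against 5.37 and KRT18 at 5.83 against 14.3. KRT18 was past 2-fold, with a log2 ratio of -1.16, while that of its partner KRT8 was 0.93. PAX8 was at 0.489 against 0.0738, EPCAM, CDH1 and KRT19 were below 0.1 in both lines and MUC16 had no entry. Of 14 leukocyte, endothelial and fibroblast markers 1 (COL1A1) had an entry, at 0.203 against 0.198. In such bulk RNA, fewer expressing cells and less RNA per cell cannot be told apart.

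Of the 63 members, 44 had a mean listed value of at least 1 over both libraries and are called expressed. Among these, 7 were at least 2-fold higher in the resistant line (15.9%), where 8.50% of all 5767 expressed genes were. At least 2-fold lower were 2 members (4.55%), where 4.37% of all expressed genes were. The 7 higher genes were HSPD1, HSPA9, HSP90B1, CDC37, CCT3, DNAJB11 and DNAJC10, and the 2 lower ones were CCT2 and STUB1. The fold rule was applied to log2 ratios, resistant over parental, after adding 1 to each value, which understates differences of low genes. In what follows, a value in brackets after a pair of levels is this log2 ratio, and a pair joined by "against" is of resistant against parental cells. The median log2 ratio was 0.27 over the 44 expressed members and 0.16 over all expressed genes, and 28 members were above 0 and 16 below. The share above 0 was 63.6% of these members, near the 61.9% of all expressed genes. After rescaling the resistant library by the median ratio of all expressed genes (1.17), 24 members were above 0 and 20 below. Of all 5767 expressed genes, 2883 were then above 0. With this rescaling 5 members were at least 2-fold higher (11.4%), where 5.46% of all expressed genes were. At least 2-fold lower were 2 members (4.55%), where 6.02% of all expressed genes were. In the same rescaling, the share of higher genes among all genes past 2-fold was 47.6%, against 66.0% as deposited.

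**Figure D1:**
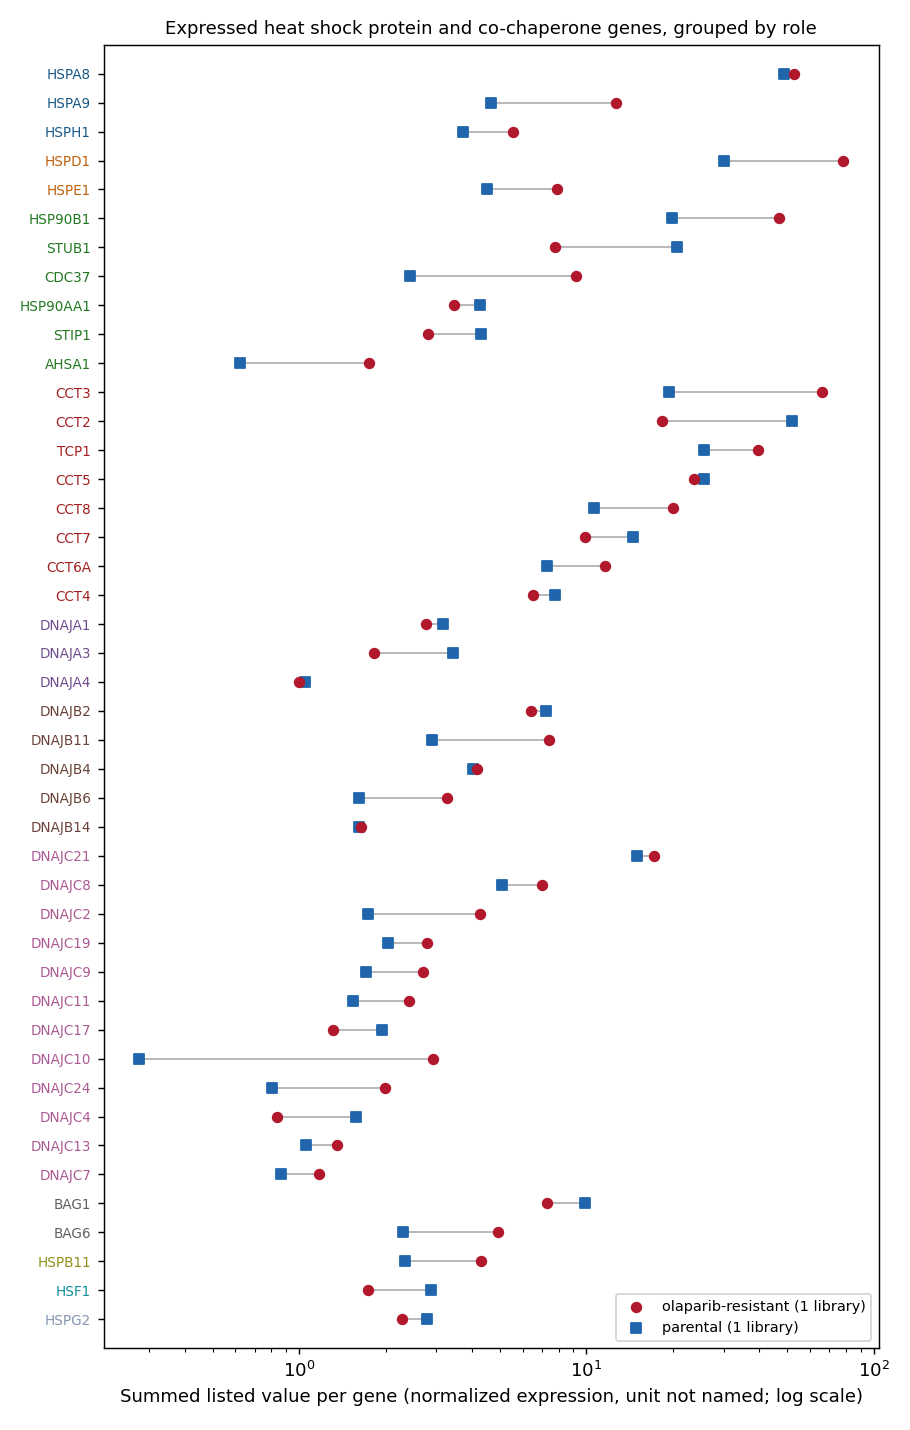
Summed listed value (log scale, unit not named) of the 44 expressed members in olaparib-resistant (circles) and parental cells (squares), with 1 library each; label colours mark the role groups. HSPD1 was highest in resistant cells at 78.4 and CCT2 in parental cells at 51.9, and the widest gap on this scale was that of DNAJC10 (2.92 against 0.277).

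**Figure D2:**
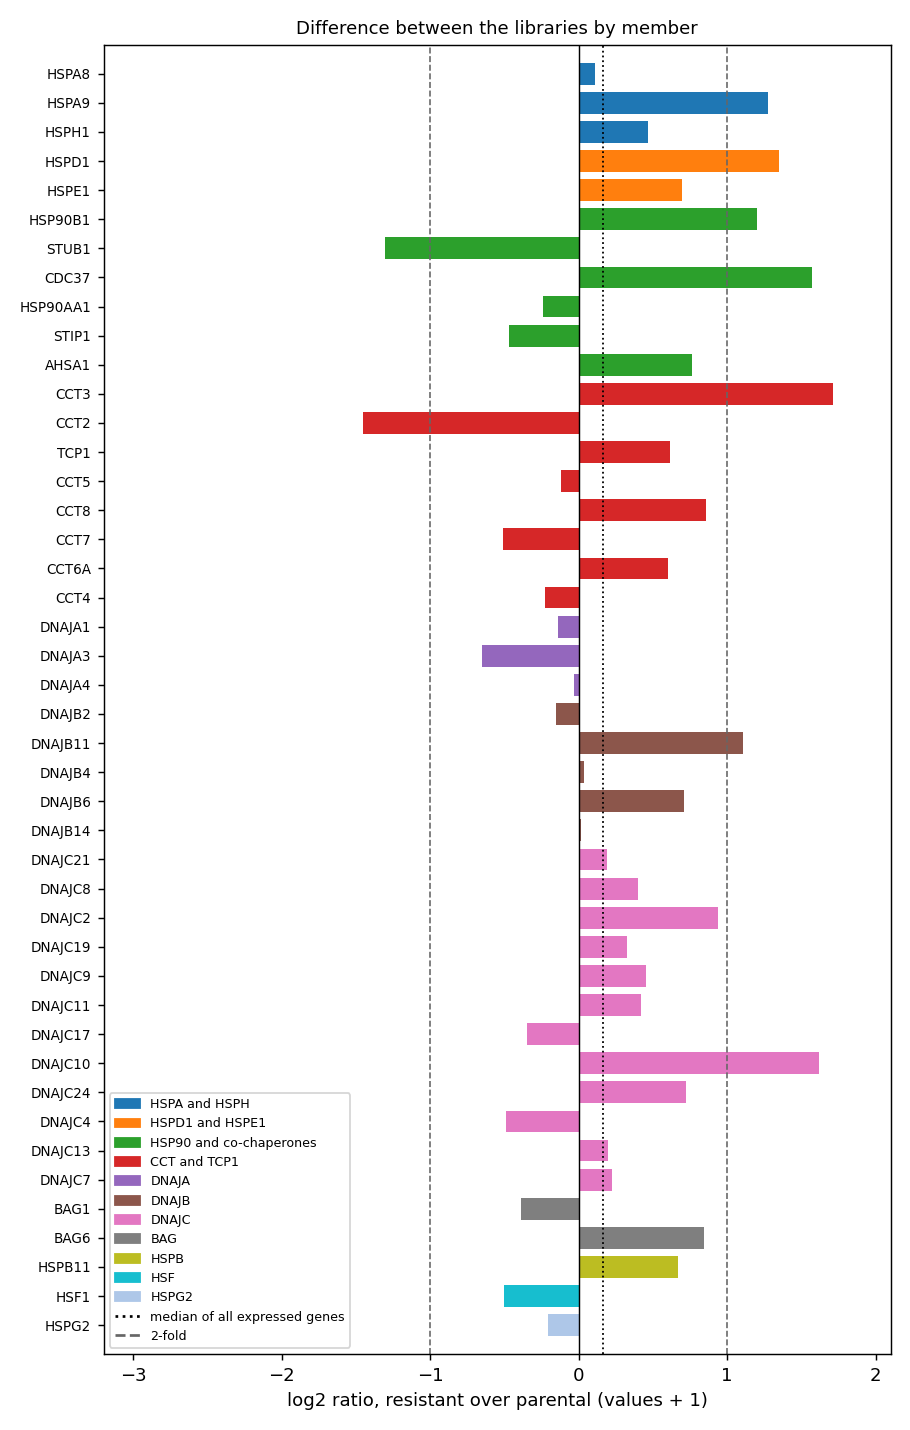
Bars give the log2 ratio, resistant over parental, of values plus 1 for the same 44 members, coloured by role. Dashed lines mark 2-fold and the dotted line the median of all expressed genes (0.16); 7 bars pass the line on the right and 2 that on the left.

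Promoter windows were searched for the sequence that HSF1 is known to bind. RefSeq windows (build GRCh38.p14, 250 bases before to 50 after a gene's start) were matched by symbol for 53 of the 63 members. HSPE1, HSF1 and STUB1 were among those without a matched window. A heat shock element is a run of inverted GAA units. Its 2-unit forms GAANNTTC and TTCNNGAA were searched on both strands, as were the 3-unit forms, in which a further inverted unit follows after NN. The 3-unit form occurred in 5 of the 74 windows of members (6.76%) and in 0.489% of all 34943 windows of this length. It lay in windows of HSPD1, HSPA8, HSP90AA1, DNAJA1 and DNAJB6. The 2-unit forms, which the 3-unit forms contain, occurred in 25.7% of member windows and 13.5% of all windows. The endoplasmic reticulum stress element, CCAAT and CCACG with 9 bases between them, was found in 1 window of a member, that of HSP90B1, with 2 matches, and in 0.0773% of all windows. These 6 windows, picked by the search for the 3-unit form and the endoplasmic reticulum stress element, are shown 5′ to 3′ on the strand of the gene. Capitals mark every match of these forms and of the 2-unit forms (overlapping matches run together).
HSPD1 (chr2:197499791-197500090, - strand): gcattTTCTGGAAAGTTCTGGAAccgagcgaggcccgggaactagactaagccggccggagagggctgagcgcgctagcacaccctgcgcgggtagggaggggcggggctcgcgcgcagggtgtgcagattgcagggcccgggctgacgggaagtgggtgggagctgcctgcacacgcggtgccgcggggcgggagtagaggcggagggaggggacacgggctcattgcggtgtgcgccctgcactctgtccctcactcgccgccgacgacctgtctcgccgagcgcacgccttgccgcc
HSPA8 (chr11:123062087-123062386, - strand): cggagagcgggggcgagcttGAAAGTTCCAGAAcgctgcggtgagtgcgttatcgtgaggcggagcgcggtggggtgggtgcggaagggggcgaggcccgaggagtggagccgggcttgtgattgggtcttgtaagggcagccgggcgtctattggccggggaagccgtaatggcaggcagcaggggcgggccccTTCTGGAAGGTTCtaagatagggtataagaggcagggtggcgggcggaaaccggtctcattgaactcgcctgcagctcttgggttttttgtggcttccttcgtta
HSP90AA1 (chr14:102086995-102087294, - strand): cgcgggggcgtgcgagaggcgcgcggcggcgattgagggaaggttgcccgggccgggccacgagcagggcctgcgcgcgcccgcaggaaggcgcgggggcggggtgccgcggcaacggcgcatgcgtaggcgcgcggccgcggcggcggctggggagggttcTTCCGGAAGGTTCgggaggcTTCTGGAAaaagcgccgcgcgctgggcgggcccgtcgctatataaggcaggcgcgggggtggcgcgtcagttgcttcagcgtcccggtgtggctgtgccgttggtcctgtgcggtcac
DNAJA1 (chr9:33025023-33025322, + strand): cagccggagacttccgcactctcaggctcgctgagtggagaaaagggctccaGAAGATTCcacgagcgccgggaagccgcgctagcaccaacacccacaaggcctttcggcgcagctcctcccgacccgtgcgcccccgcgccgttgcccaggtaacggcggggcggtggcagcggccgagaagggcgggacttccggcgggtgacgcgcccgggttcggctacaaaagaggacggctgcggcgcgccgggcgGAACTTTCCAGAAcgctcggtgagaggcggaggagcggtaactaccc
DNAJB6 (chr7:157336754-157337053, + strand): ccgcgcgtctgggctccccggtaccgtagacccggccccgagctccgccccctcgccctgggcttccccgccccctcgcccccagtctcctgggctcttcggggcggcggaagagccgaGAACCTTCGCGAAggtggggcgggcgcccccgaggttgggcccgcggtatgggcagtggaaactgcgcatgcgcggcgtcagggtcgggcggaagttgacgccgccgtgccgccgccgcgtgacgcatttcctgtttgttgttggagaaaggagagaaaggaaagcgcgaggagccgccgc
HSP90B1 (chr12:103930160-103930459, + strand): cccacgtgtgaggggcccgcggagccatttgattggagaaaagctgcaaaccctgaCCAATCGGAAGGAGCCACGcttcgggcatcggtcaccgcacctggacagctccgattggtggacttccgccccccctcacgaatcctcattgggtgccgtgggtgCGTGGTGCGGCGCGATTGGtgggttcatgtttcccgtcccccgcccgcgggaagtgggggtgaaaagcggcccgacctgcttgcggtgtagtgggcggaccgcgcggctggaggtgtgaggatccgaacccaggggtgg
The 5 members with the 3-unit element did not share a direction. HSPD1 had a log2 ratio of 1.35, DNAJB6 one of 0.71, HSPA8 one of 0.11 (-0.11 after rescaling), DNAJA1 one of -0.14 and HSP90AA1 one of -0.24. A match is a description of letters, and binding by HSF1 was not measured.

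HSF1 itself was lower in the resistant line, within 2-fold. Its 8 listed transcripts (ENSG00000185122, chromosome 8, 144291591 to 144314722, GRCh38) summed to 1.74 in resistant and 2.88 in parental cells, a log2 ratio of -0.50. Among them, the retained-intron transcript HSF1-210, which overlaps DGAT1 on the other strand by 136 bases, carried the larger part of this gap, at 0.607 in resistant and 1.73 in parental cells, and its share of the gene was 34.9% against 60.1%. HSF1-202 was the other way round, at 0.611 in resistant and 0.133 in parental cells. DNAJB1, a J-domain protein known as a sensitive HSF1 target, was represented by a single retained-intron transcript at 0.00065 in resistant and 0.0572 in parental cells. Its fold change in the authors' deposited table corresponds to counts of 0 and 8, so neither library holds enough signal for a comparison.

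Among HSP70 proteins, the mitochondrial HSPA9 was higher in the resistant line while the constitutive HSPA8 was nearly level. HSPA9 (mortalin, which pulls precursor proteins into the mitochondrial matrix; ENSG00000113013, chromosome 5, 138553756 to 138575724) had 12.7 in resistant and 4.66 in parental cells, a log2 ratio of 1.28. The gap was mostly that of HSPA9-213, at 10.5 in resistant and 3.19 in parental cells, a transcript with an authors' log2 fold change of 1.44 (adjusted p = 0.00214 in the authors' deposited table, 1 library against 1). All 5 HSPA9 transcripts were higher in the resistant line by listed value. With a pseudocount of 5 the HSPA9 ratio was 0.87.

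HSPA8, the constitutive cytosolic HSP70 (ENSG00000109971, chromosome 11, 123057489 to 123063230), had 52.6 in resistant and 48.6 in parental cells. Its log2 ratio of 0.11 turned to -0.11 after rescaling. The near-level sum hid different isoform shares. HSPA8-211, a retained-intron transcript, had 21.8 in resistant and 5.54 in parental cells and made up 41.3% of the gene in resistant cells against 11.4% in parental cells. HSPA8-214 and HSPA8-219 were lower, at 16.9 against 23.2 and at 12.03 against 16.5. The processed transcript HSPA8-209 had 0.0252 in resistant and 1.98 in parental cells, and its fold change corresponds to counts of 0 and 146.

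Of the genes for HSP110 proteins, which act as exchange factors for HSP70, HSPH1 was the only one expressed. It had 5.53 in resistant and 3.72 in parental cells, a log2 ratio of 0.47 that did not pass 2-fold and was 0.28 after rescaling. HSPA4 lay below the expression threshold with 1.59 in resistant and 0.259 in parental cells, for a log2 ratio of 1.04. Its retained-intron transcript HSPA4-203 had 1.44 against 0.144, from counts of 196 and 29, while HSPA4-202 was close, at 0.151 against 0.115. HSPA4L, the other HSP110 gene, was at 0.0742 against 0.0200. HSPA12A and HSPA14 stayed below 0.6 in both lines, and the 2 transcripts of HSPA14 carry 2 gene identifiers.

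The mitochondrial chaperonin pair was higher in the resistant line in both parts. HSPD1 (HSP60, the barrel of the folding chamber; ENSG00000144381, chromosome 2, 197486581 to 197516737) had the largest listed value of all members there, at 78.4 in resistant and 30.2 in parental cells. HSPD1-211 contributed 52.3 in resistant and 17.4 in parental cells, and the other 4 transcripts, HSPD1-210, HSPD1-212, HSPD1-213 and HSPD1-214, were also higher in the resistant line. The HSPD1 log2 ratio of 1.35 ranked above that of 96.2% of expressed genes and lay between 1.12 and 1.54 over 6 alternatives. Those on counts of 0 and on transcripts whose value ratio and fold change disagree could not move it, since HSPD1 has no such transcript. In the authors' deposited table HSPD1-211 was given a log2 fold change of 1.30 (adjusted p = 0.00475) and HSPD1-210 one of 0.43 (adjusted p = 0.422).

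HSPE1 (HSP10, the lid; ENSG00000115541, chromosome 2, 197499994 to 197503457) had 7.90 in resistant and 4.50 in parental cells, a log2 ratio of 0.69 that was under 2-fold. HSPE1-206 had 6.07 against 3.51 and HSPE1-204 had 1.83 against 0.989, so the share of each isoform hardly differed. The HSPE1 locus lies inside the annotated span of HSPD1 on the other strand, and nothing states which strand was counted. GENCODE also annotates 17 pseudogenes named after HSPD1, 26 after HSPE1 and 17 after HSPA8, with which reads can be shared, so these 3 levels are uncertain.

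Of HSP90 itself, the endoplasmic reticulum form was higher and the inducible cytosolic form was not. HSP90B1 (GRP94, which folds integrins and Toll-like receptors; ENSG00000166598, chromosome 12, 103930107 to 103953645) had 46.97 in resistant and 19.9 in parental cells, a log2 ratio of 1.20. Its HSP90B1-208 had 21.5 against 6.29, HSP90B1-203 had 10.1 against 4.37 and HSP90B1-209 had 8.92 against 3.36, whereas HSP90B1-204 was at 3.13 against 3.55. Another 3 assembled transcripts under this name lie over C12orf73 on the other strand and summed to under 2 in both lines. The authors' deposited table gives HSP90B1-208 a log2 fold change of 1.49 (adjusted p = 0.00131). Relative to the median of all genes the HSP90B1 ratio was 0.98, just under 2-fold. HSP90AA1, whose 4 transcripts are short retained-intron pieces, had 3.46 in resistant and 4.27 in parental cells, for a log2 ratio of -0.24.

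The co-chaperones of HSP90 went in both directions. CDC37, which loads kinases onto HSP90 (ENSG00000105401, chromosome 19, 10391134 to 10420121), had 9.19 in resistant and 2.43 in parental cells, a log2 ratio of 1.57. Most of this came from CDC37-207, a retained-intron form, at 7.40 in resistant and 1.09 in parental cells, from counts of 890 and 190. Its share of the gene was 80.5% against 44.6%, and the other 3 CDC37 transcripts were at 0.833 against 0.619, 0.763 against 0.413 and 0.200 against 0.315. The CDC37 ratio was 0.93 with a pseudocount of 5. AHSA1, which stimulates the HSP90 ATPase, had 1.76 in resistant and 0.623 in parental cells, for a log2 ratio of 0.76. STIP1 (HOP), which passes clients between HSP70 and HSP90, had 2.82 in resistant and 4.28 in parental cells (-0.47).

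STUB1 (CHIP), the ubiquitin ligase that marks chaperone-bound clients for degradation (ENSG00000103266, chromosome 16, 680224 to 682870), was lower in the resistant line. It had 7.77 in resistant and 20.7 in parental cells, a log2 ratio of -1.31, and 2.29% of expressed genes had a lower ratio. The processed transcript STUB1-207 accounted for the difference, at 2.55 in resistant and 15.7 in parental cells, with an authors' log2 fold change of -2.91 (adjusted p = 1.07e-09 in the authors' deposited table). The retained-intron STUB1-211 was slightly the other way, at 3.47 in resistant and 2.49 in parental cells, so that STUB1-207 made up 32.8% of the gene in resistant cells against 75.9% in parental cells. In GENCODE, 543 of the 990 bases of the STUB1-207 locus overlap JMJD8 on the other strand, and reads of the pair cannot be told apart here.

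**Figure D3:**
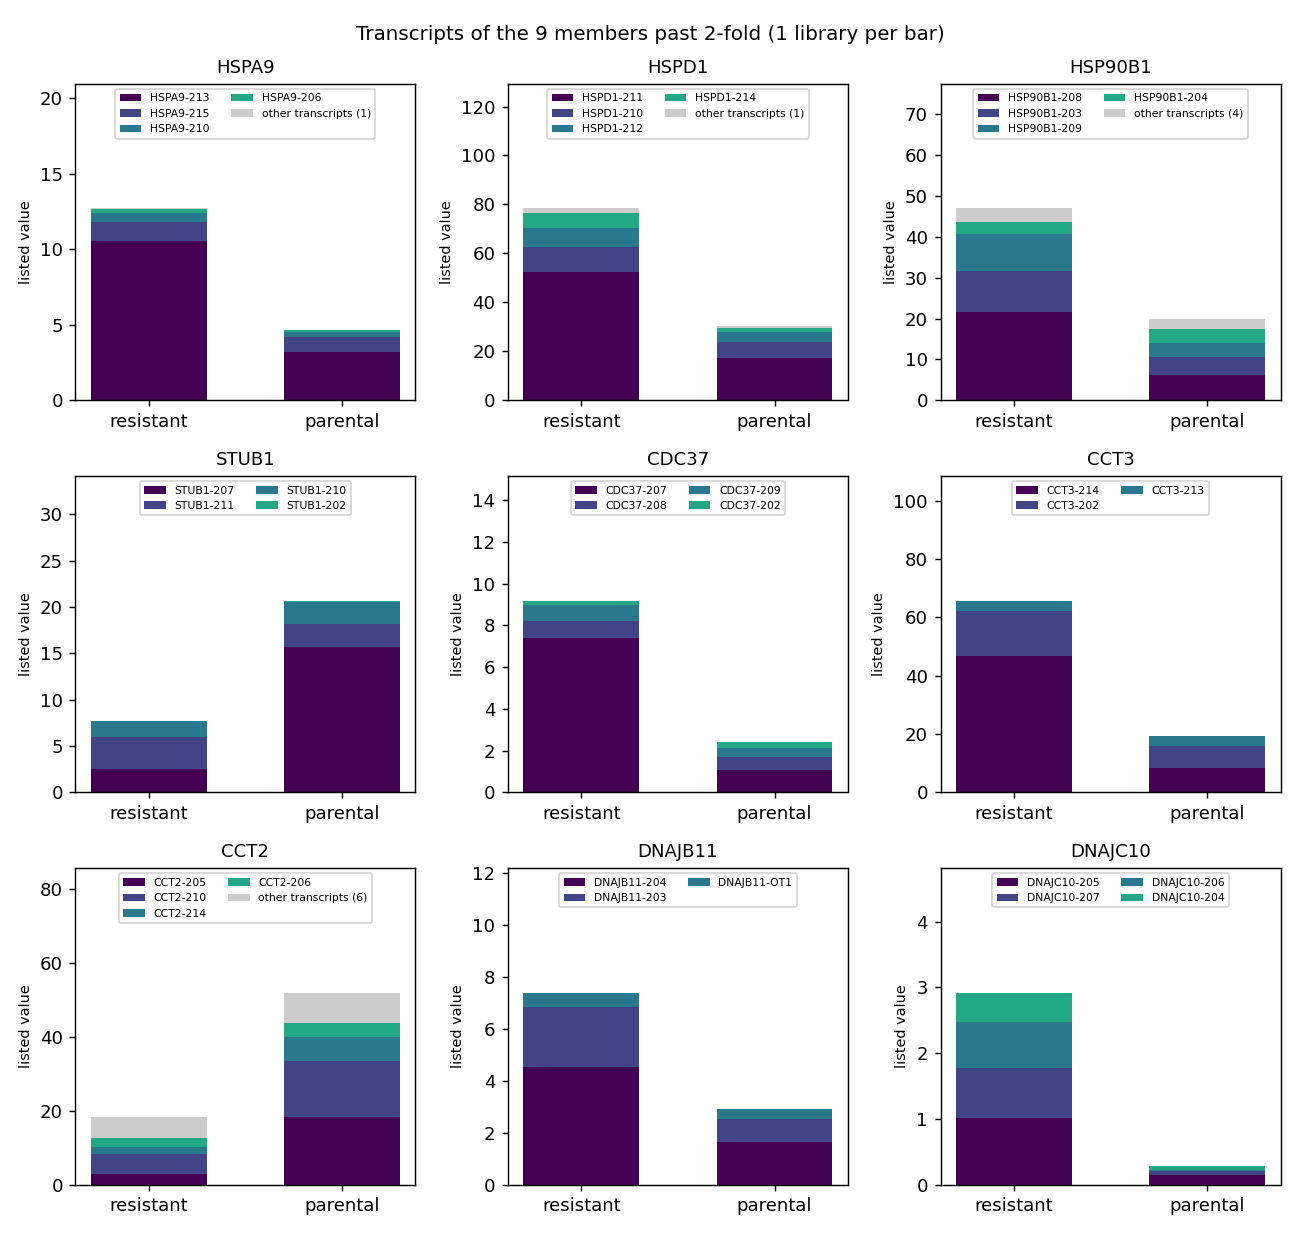
Stacked bars give the listed value of each transcript of the 9 members past 2-fold, with the resistant library left and the parental library right in each panel (1 library per bar, own scale per panel, axes from 0). The transcript with the largest mean carried most of the gap in each of these genes except CCT2 and DNAJC10. All 4 DNAJC10, all 5 HSPD1, all 5 HSPA9 and all 3 DNAJB11 transcripts were higher in the resistant library by listed value.

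The TRiC subunits, which assemble in equal numbers into one ring complex, did not share a direction. Of the 9 genes, 8 were expressed, with 4 above 0 and 4 below, and the highest and the lowest log2 ratio among all expressed members both belonged to subunits. CCT3 (the gamma subunit; ENSG00000163468, chromosome 1, 156308968 to 156367873) had 65.8 in resistant and 19.4 in parental cells, a log2 ratio of 1.71. CCT2 (the beta subunit; ENSG00000166226, chromosome 12, 69585334 to 69601570) had 18.3 in resistant and 51.9 in parental cells, a log2 ratio of -1.45. Both kept their side of 2-fold in all 6 alternatives, between 1.49 and 2.37 for CCT3 and between -2.30 and -1.29 for CCT2. The alternatives on counts of 0 and on transcripts whose value ratio and fold change disagree could move neither.

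The CCT3 difference came from CCT3-214, a retained-intron transcript that spans 15168 bases of the locus, at 46.9 in resistant and 8.29 in parental cells. CCT3-202 was at 15.4 against 7.58. CCT3-213 was level by listed value, at 3.52 against 3.54, with an authors' log2 fold change of -0.29. The locus of CCT3-214 is free of genes on the other strand in GENCODE, whereas the other two overlap TSACC. In the authors' deposited table CCT3-214 was given a log2 fold change of 2.21 (adjusted p = 1.06e-06) and CCT3-202 one of 0.74 (adjusted p = 0.132). Of the 10 CCT2 transcripts, 8 were lower in the resistant line by listed value. The largest gaps were those of CCT2-205, at 2.93 in resistant and 18.4 in parental cells, and CCT2-210, at 5.26 in resistant and 15.1 in parental cells. CCT2-211 and CCT2-212 were higher by listed value, at 0.797 against 0.337 and at 2.86 against 2.64. Their authors' log2 fold changes were 0.95 and -0.17.

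The other 6 expressed subunits lay within 2-fold. CCT8 had 19.99 in resistant and 10.6 in parental cells, for a log2 ratio of 0.86, TCP1 had 39.6 against 25.6 (0.61) and CCT6A had 11.6 against 7.30 (0.60). CCT5 had 23.6 against 25.7 (-0.12), CCT4 had 6.50 against 7.78 (-0.23) and CCT7 had 9.90 against 14.5 (-0.51). CCT8 also differed by isoform. CCT8-210 had 14.9 in resistant and 4.45 in parental cells, while CCT8-204 had 0.539 in resistant and 3.07 in parental cells, and their shares of the gene were 74.5% against 42.0% and 2.70% against 28.98%. CCT6B, which is mainly expressed in testis, was at 0.0302 in resistant and 0.0935 in parental cells.

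The 32 J-domain genes (DNAJA, DNAJB and DNAJC), which bring clients to HSP70 and start its ATPase, held 2 members past 2-fold among 20 expressed ones (10.0%), a share near the 12.9% of all expressed genes past 2-fold in either direction. Both encode proteins of the endoplasmic reticulum. DNAJC10 (ERdj5, a disulfide reductase that unfolds proteins for degradation; ENSG00000077232, chromosome 2, 182716041 to 182794464) had 2.92 in resistant and 0.277 in parental cells, a log2 ratio of 1.62. All 4 DNAJC10 transcripts were higher, among them DNAJC10-205 with 1.01 in resistant and 0.151 in parental cells and DNAJC10-206 with 0.697 against 0.00701, from counts of 2015 and 30. The authors' deposited table gives DNAJC10-206 a log2 fold change of 6.31 (adjusted p = 2.16e-29). Since the gene is low, its ratio depended on the pseudocount, with 3.00 at 0.1 and 0.59 at 5, and it was 0.81 for the transcript of largest mean alone.

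DNAJB11 (ERdj3, a partner of the endoplasmic reticulum HSP70; ENSG00000090520, chromosome 3, 186567403 to 186585800) had 7.38 in resistant and 2.90 in parental cells, a log2 ratio of 1.10. DNAJB11-204 had 4.52 against 1.64 and DNAJB11-203 had 2.32 against 0.908, with nearly equal shares of the gene in both lines. In GENCODE, 2 of its 3 transcripts overlap genes on the other strand. For DNAJB11-204, the larger part of the gene, 6318 of 7496 bases overlap the antisense gene AC068631.1. The assembled DNAJB11-OT1 overlaps TBCCD1 over all of its 12007 bases. Reads of either pair cannot be told apart here. The DNAJB11 ratio was under 2-fold after rescaling (0.91) and with a pseudocount of 5 (0.65).

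Of the 12 expressed DNAJC genes, DNAJC10 included, 10 were above 0 as deposited, where 61.9% of all expressed genes were. After rescaling 9 of these 12 were above 0, where 2883 of all 5767 expressed genes were. No test of these shares was made. The 3 expressed DNAJA genes were below 0 as deposited, where 2199 of all 5767 expressed genes were. DNAJC2, a ribosome-bound J-protein, had 4.25 in resistant and 1.73 in parental cells, for a log2 ratio of 0.94, with all 4 transcripts higher. DNAJC24, needed for the diphthamide modification of elongation factor 2, had 1.99 in resistant and 0.807 in parental cells (0.72). DNAJB6, which suppresses aggregation of polyglutamine proteins, had 3.27 in resistant and 1.61 in parental cells (0.71). The mitochondrial DNAJA3 was lower, at 1.83 in resistant and 3.43 in parental cells (-0.65), through DNAJA3-212 with 0.609 against 2.20.

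DNAJC21, a factor of large ribosomal subunit maturation and the most abundant J-domain gene here, had 17.2 in resistant and 14.96 in parental cells, and its ratio of 0.19 was -0.02 after rescaling. DNAJB2, a J-protein that binds ubiquitin chains, had 6.42 in resistant and 7.26 in parental cells (-0.15), and DNAJA1, a main cytosolic partner of HSP70, had 2.77 against 3.16 (-0.14). The spliceosome-associated DNAJC8 had 7.01 in resistant and 5.07 in parental cells (0.40). DNAJC9, a histone chaperone, had 2.71 against 1.71 (0.45). The mitochondrial DNAJC11 and DNAJC19 had 2.41 against 1.55 (0.42) and 2.80 against 2.04 (0.32). The rest of the expressed J-domain genes (DNAJA4, DNAJB4, DNAJB14, DNAJC4, DNAJC7, DNAJC13 and DNAJC17) ranged from a log2 ratio of -0.49 (DNAJC4) to 0.22 (DNAJC7), and DNAJB4 and DNAJB14 turned below 0 after rescaling.

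Isoform shares differed in several J-domain genes, among them DNAJB14, whose sum was nearly level. DNAJB14 had 1.64 in resistant and 1.62 in parental cells, yet DNAJB14-210 made up 91.6% of it in resistant cells against 47.1% in parental cells (1.51 against 0.764). DNAJB14-208, with 0.00696 in resistant and 0.526 in parental cells, corresponds to counts of 0 and 999. The level sum depends on DNAJB14-208, whose value ratio and fold change disagree. With such transcripts left out the DNAJB14 log2 ratio was 0.33. DNAJC17-202 had 0.457 in resistant and 1.23 in parental cells, or 34.9% against 63.2% of DNAJC17. DNAJC6 (auxilin, which uncoats clathrin vesicles) lay below the threshold with 0.258 in resistant and 1.32 in parental cells. Its processed transcript DNAJC6-204 had 0.0161 in resistant and 1.16 in parental cells, from counts of 0 and 9359 over a locus of 117976 bases, with a log2 fold change of -16.07 (adjusted p = 3.84e-56) in the authors' deposited table. Leaving out transcripts whose value ratio and fold change disagree took DNAJC6-204 away and left a DNAJC6 ratio of 0.09. Of all member transcripts, 13 in 11 genes had a value of at least 1 and a share that differed by at least 25 percentage points between the lines, all of which are named here. They were 13.5% of the 96 member transcripts that reach this value in genes with 2 or more transcripts, against 16.8% of all 7863 such transcripts, so the count is no result about the members.

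Among the BAG proteins, exchange factors that open HSP70, BAG6 and BAG1 went opposite ways within 2-fold. BAG6, which guards proteins bound for membranes, had 4.92 in resistant and 2.30 in parental cells, for a log2 ratio of 0.84. BAG1 had 7.32 in resistant and 9.91 in parental cells (-0.39), of which BAG1-201 made up 4.95 against 7.23. BAG4, at 0.909 in resistant and 0.649 in parental cells, was below the threshold. Of the HSPB symbols, HSPB11 had 4.30 in resistant and 2.33 in parental cells (0.67), while the small heat shock gene HSPB8 was at 0.000898 against 0.0640, from counts of 0 and 31. HSPG2 had 2.27 in resistant and 2.78 in parental cells (-0.21). Without it, 28 of 43 expressed members were above 0 and 15 below, and the median log2 ratio was 0.32.

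The 19 members below the threshold ranged from -0.88 (DNAJC6) to 1.04 (HSPA4) on the log2 scale, with 10 above 0 and 9 below. Among them DNAJB5 had 0.654 in resistant and 0.0723 in parental cells, DNAJC27 had 0.928 against 0.268 and DNAJB9, an endoplasmic reticulum J-protein, had 0.256 against 0.0489. Most of these 2 parental values comes from transcripts (DNAJC27-203, DNAJC27-204, DNAJC27-206 and DNAJB9-202) whose recovered parental count is 0, so no difference is read from them. DNAJB7, DNAJA2 and DNAJC16 had 0.307 against 0.314, 0.534 against 0.589 and 0.391 against 0.710. The remaining ones (DNAJB12, DNAJC1, DNAJC18 and DNAJC22) were under 0.5 in both lines.

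Read by compartment, a grouping made after the values were seen and given as a description, the higher genes included the endoplasmic reticulum chaperones HSP90B1, DNAJB11 and DNAJC10 and the mitochondrial matrix chaperones HSPD1 and HSPA9. The mitochondrial DNAJA3 (-0.65) and the endoplasmic reticulum DNAJB14 (0.01) did not share this. The mitochondrial HSPE1 (0.69), DNAJC11 (0.42) and DNAJC19 (0.32) were above 0 but within 2-fold. The partners of these members were looked up in a separate list of 69 chaperone and co-chaperone symbols. Of these, 54 had a value and 33 were expressed, with 3 past 2-fold upwards (9.09%) and 1 downwards (3.03%), near the 8.50% and 4.37% of all expressed genes. Their median log2 ratio was -0.01, against 0.16 over all expressed genes. Among 6 expressed endoplasmic reticulum genes, the disulfide isomerase PDIA3 was past 2-fold, at 2.55 in resistant and 0.429 in parental cells, for a log2 ratio of 1.31. Calreticulin (CALR) had 9.40 against 9.68 and P4HB had 15.5 against 20.95. CANX (-0.33) was below 0, and CRELD2 (0.16) and MANF (0.51) were above. Among 5 expressed mitochondrial genes, the matrix protease subunit CLPP was past 2-fold, at 4.25 in resistant and 0.784 in parental cells (1.56). TRAP1, the mitochondrial HSP90, had 3.15 against 3.18. CLPX was lower within 2-fold, at 1.01 against 2.25 (-0.70), and LONP1 (0.16) and HTRA2 (0.37) were above 0. The mitochondrial HSCB, listed by role and given below, was past 2-fold lower (-1.05). The exchange factors GRPEL1 (-0.62), GRPEL2 (0.34) and HYOU1 (0.02) were also listed by role rather than by compartment.

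Of the 7 expressed co-chaperones of HSP90 outside the members, TTC4 was past 2-fold, at 17.3 in resistant and 6.94 in parental cells (1.21), and the immunophilin FKBP4 fell just short of 2-fold in the other direction, at 1.41 in resistant and 3.80 in parental cells (-0.996). HSCB, the mitochondrial J-domain protein of iron-sulfur cluster assembly, was lower, at 2.81 in resistant and 6.89 in parental cells (-1.05). None of the 3 expressed prefoldin genes, which hand actin and tubulin chains to TRiC, was past 2-fold, and PFDN5 had 21.8 in resistant and 25.6 in parental cells. None of the 3 expressed HSP70 exchange factors and co-chaperones was past it either. GRPEL1 had 1.43 in resistant and 2.74 in parental cells (-0.62), GRPEL2 had 1.67 against 1.11 (0.34) and HYOU1 had 1.07 against 1.04 (0.02). Nor was any of 6 expressed genes in the list of other HSF factors and HSF1 regulators or targets. In that list HSF4 had 3.29 in resistant and 4.20 in parental cells. The alpha-crystallins CRYAA and CRYAB stayed below 0.03 in both lines.

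**Figure D4:**
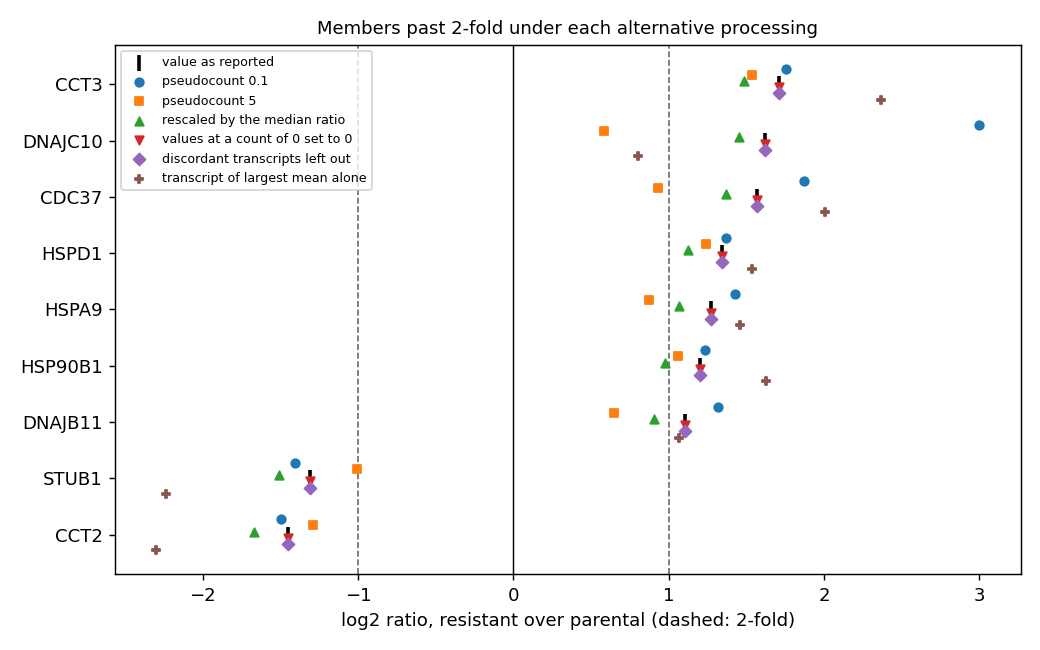
For each of the 9 members past 2-fold, the black tick gives the log2 ratio, resistant over parental, as reported and the symbols the ratio under 6 other ways of processing the same 2 libraries; dashed lines mark 2-fold. CCT3, HSPD1, CCT2 and STUB1 stayed past the line in all 6, and no member changed direction. Setting values at a count of 0 to 0 could not move these 9 members, which hold no such transcripts. The same holds for leaving out transcripts whose value ratio and fold change disagree. A changed pseudocount cannot turn a direction.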

How the data were processed

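Total RNA of 1 olaparib-resistant and 1 parental SKOV3 culture was extracted with Trizol, and ribosomal RNA was removed, per the labels' protocols. HISAT2 and StringTie are named in the submitters' processing notes, without versions. The notes name the mouse build mm10, but the deposited table has human Ensembl identifiers. Of its transcripts, 43558 (91.0%) are in GENCODE release 29, and the GRCh38 start and end match for 98.4% of those. The authors deposited a normalized expression signal per transcript and library, a log2 fold change of resistant over parental, and raw and adjusted p-values, per the file headers, from a test that nothing names. Their p-values compare 2 libraries, not conditions. A second deposited list was not used here.

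Signals were summed per gene name (Python 3.11.15, pandas 2.3.3). Log2 ratios used a pseudocount of 1, and expressed genes had a mean of at least 1. No test or interval is given, for want of replicates. The fold changes were read as ratios of whole counts plus 0.114 (resistant) and 0.136 (parental), each sum divided by its constant. This gives the counts quoted, where at most 0.01 matches by chance were expected. The quoted counts are not scaled between the libraries, so their ratio differs from the fold change. A count of 0 came beside a listed value above 0 in 25 of the 249 member transcripts. The calculation was tested on simulated data, with 200 genes changed 4-fold and no noise between the libraries. This checks the arithmetic of the fold rule and not how often a 2-fold call is wrong. Named were expressed members past 2-fold, the most abundant member of each role, a fixed set of well-known members, transcripts whose share differed by at least 25 percentage points with a value of at least 1, and listed partners past 2-fold; other members are given for completeness. The members and lists were chosen with earlier results of these data known.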

Additional observations from a re-analysis of the deposited data

How the results depend on the processing

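The count of members at least 2-fold higher (7) was 11 with a pseudocount of 0.1 and 3 with a pseudocount of 5, and lay between 5 and 8 in the other 8 alternatives, 2 of which concern only the choice of members and were added after seeing the data. The count of lower members (2) did not change in any of them. Its share was 4.55% with pseudocounts of 0.1 and 5, against 7.53% and 1.18% of all expressed genes. It was 3.17% against 1.62% with no filter and 10.0% against 6.34% with a mean of at least 5. The members' median log2 ratio of 0.27 (0.16 over all expressed genes) was 0.42 (0.22) with a pseudocount of 0.1 and 0.15 (0.08) with a pseudocount of 5. It was 0.16 (0.03) with no filter on low values and 0.50 (0.17) over the 20 members with a mean from 5 up. After rescaling by the median ratio it was 0.13 (0). Values in brackets are those of all genes kept under the same setting. Of all 5767 expressed genes, 957 were higher and 434 lower with a pseudocount of 0.1, and 104 and 68 with a pseudocount of 5. After rescaling 315 were higher and 347 lower, where lower genes outnumber higher ones. Of the 1609 genes with a mean of at least 5, 198 were higher and 102 lower. None of the 9 members past 2-fold turned in direction in the 6 alternatives applied to single members. A changed pseudocount cannot turn a direction. Setting values at a count of 0 to 0, or leaving out transcripts whose value ratio and fold change disagree, could not move any of the 9. The cause of these shifts was not tested. Low genes are limited by an unknown depth. No paired analysis was possible because each group has 1 library.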
